A study of Homo sapiens with 2 samples.

Results

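The 10 genes described here encode the Polo-like kinases PLK1 and PLK4, the Aurora kinases AURKA and AURKB, the mitotic kinase NEK2, the Aurora A and PLK1 cofactors TPX2 and BORA, and the chromosomal passenger proteins INCENP, BIRC5 and CDCA8. They were taken as every probe, control spots left out, whose RefSeq transcript belongs to a member gene. This gave 12 probes in 30 spots among 50599 probes, and all 10 genes were measured among 23752 genes and unnamed transcripts. The series holds 2 one-colour (Cy3) Agilent human arrays of HepG2 cells, an established human liver tumour line that divides continuously in culture. The DMSO array holds RNA of cells given the solvent (1‰ DMSO) for 24 h, and the HTE array holds RNA of cells given hawk tea extract (HTE), a leaf extract dissolved in DMSO, for 24 h. The labels give an HTE dose of 200 μg per mL, while the name of the HTE array carries the number 300. The study's text gives 300 μg per mL for the microarray and reports reduced cell viability at that dose, a loss that it terms slight. The part of that loss in the results was not tested. With 1 array per condition there are no replicate cultures, no test was possible and no p value is given, and a difference between cultures or hybridizations cannot be told apart from HTE.

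These genes act when a cell divides. PLK1 drives entry into mitosis, centrosome maturation and the exit from mitosis, and PLK4 starts the duplication of centrioles. Aurora A works at spindle poles, where TPX2 binds and activates it, and together with BORA it switches on PLK1. Aurora B forms the chromosomal passenger complex with INCENP (its scaffold), borealin (CDCA8) and survivin (BIRC5), and this complex corrects wrong attachments of chromosomes to the spindle and guides cytokinesis. The mRNAs of such genes are scarce in resting liver and abundant in dividing cells.

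All 10 genes had a lower scaled signal in HTE-treated cells, and 8 of them were at least 2-fold lower, compared with 3.03% of all genes measured that were at least 2-fold lower. A log2 ratio of HTE over DMSO below 0 was found for 49.0% of all genes. The ratio is the difference between log2 processed signals after the 75th percentile of each array is subtracted, taken at the brightest probe of a gene. The median log2 ratio was -1.25 over the 10 genes and 0 over all genes, and the 10 values ran from -1.74 for PLK1 to -0.33 for AURKB. None of the 10 was at least 2-fold higher, against 5.25% of all genes. Those not 2-fold lower were AURKB and BIRC5, which belong to the chromosomal passenger complex with INCENP and CDCA8. In bulk RNA, fewer cells in mitosis and less mRNA per cell cannot be told apart.

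**Figure D1:**
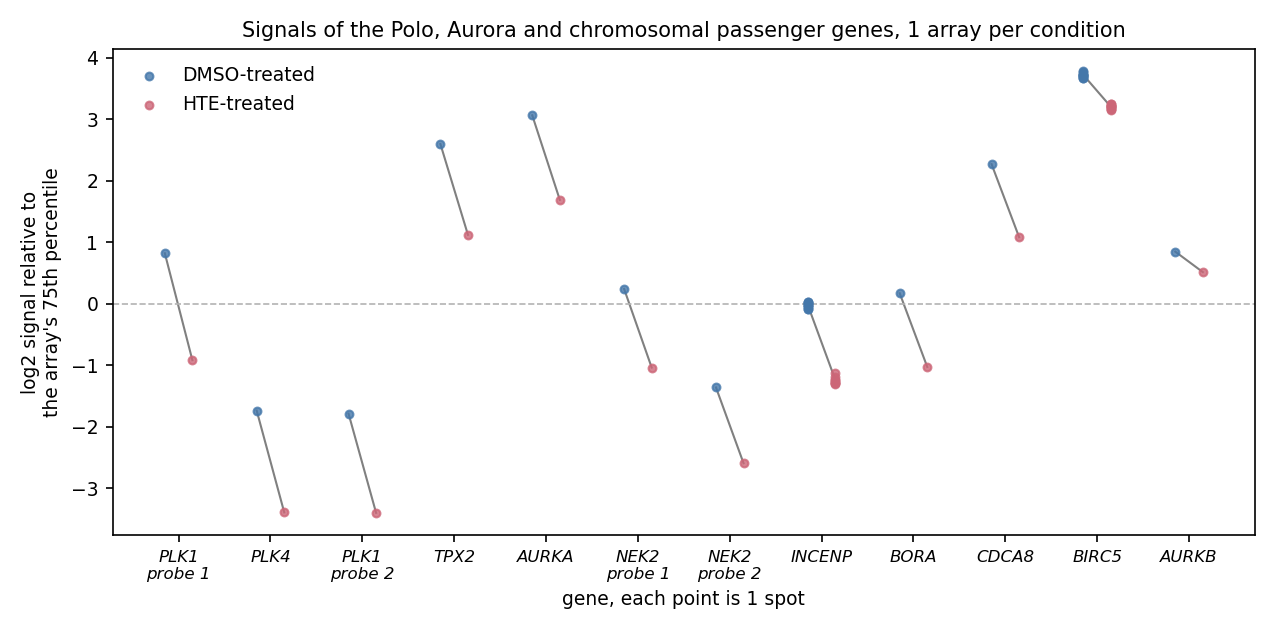
Log2 processed signal relative to the 75th percentile of the array (y axis) for each probe of the 10 genes (x axis, ordered from the largest to the smallest difference), with DMSO-treated cells in blue and HTE-treated cells in red. Each point is 1 spot and lines join the means of a probe. Every line slopes down, steeply for PLK1 and PLK4 and least for AURKB, while heights of different probes are not comparable.

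The spread that can be measured here is that of the arrays. The scanner software gives each processed signal an error, which amounts to between 0.20 and 0.22 on the log2 ratio of a member with a single spot. Replicate spots of 1 probe varied less, with a median SD of the log2 ratio of 0.051 over 688 probes, and different probes of the same gene had a median SD of 0.16 over 3759 genes. No spot of a member was saturated, and all 30 were well above background on both arrays. The local background at the member probes was low on both arrays (15 to 72.5 for DMSO and 16 to 50 for HTE), and the median log2 ratio of the spots around them lay between -0.10 and 0.056. The summed signal of 11 hepatocyte markers, all well above background on both arrays, was 828715 for DMSO and 822616 for HTE before scaling. After scaling, the log2 ratio of these sums was 0.16. Of 8 leukocyte, fibroblast and endothelial markers, the DMSO array measured 7 above background and the HTE array 6, and CD3E was detected on neither. The sums of those measured were 10012 and 7510 before scaling, with a log2 ratio of -0.24 after scaling. CD14 (a monocyte marker) and PECAM1 (an endothelial marker) were at least 2-fold lower, with log2 ratios of -1.77 and -1.82. Their part in the results was not tested.

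Among the Polo-like kinases, PLK1 was lower by the largest amount of the 10 genes. Its brighter probe had a processed signal of 7108 in DMSO-treated and 1894 in HTE-treated cells, which is 3.33-fold lower after scaling (log2 ratio of -1.74, software error 0.20). A different, dimmer PLK1 probe went from 1167 to 339 (log2 ratio of -1.61, software error 0.22). The probes differed by 0.12, less than the error of either. Of all genes, 0.383% had a lower log2 ratio than PLK1, which stood at rank 92 from the lowest. PLK4, the kinase of centriole duplication, went from a signal of 1208 to 341, 3.15-fold lower after scaling (log2 ratio of -1.65, software error 0.22). PLK1 and PLK4 thus differed by 0.083 on the log2 scale, against an error of 0.30 for that difference. BORA, which helps Aurora A to phosphorylate PLK1, went from 4530 to 1754 (log2 ratio of -1.20, software error 0.20).

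The Aurora kinases had unequal log2 ratios. The signal of AURKA was 33629 in DMSO-treated and 11522 in HTE-treated cells, 2.59-fold lower after scaling (log2 ratio of -1.37, software error 0.20). AURKB went from 7240 to 5105, 1.26-fold lower (log2 ratio of -0.33, software error 0.20). The log2 ratio of AURKA was thus 1.04 below that of AURKB, with a software error of 0.29 for the difference, and no test of it was possible. TPX2, the spindle factor that activates Aurora A, went from 24341 to 7770, 2.78-fold lower (log2 ratio of -1.48, software error 0.20). AURKA and TPX2 differed by 0.10, within the error of 0.29. NEK2, a kinase that loosens the link between centrosomes before the spindle forms, went from 4754 to 1742 at its brighter probe (log2 ratio of -1.28) and from 1568 to 593 at its dimmer probe (log2 ratio of -1.23). The NEK2 probes differed by 0.046, less than the SD between probes of a gene.

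**Figure D2:**
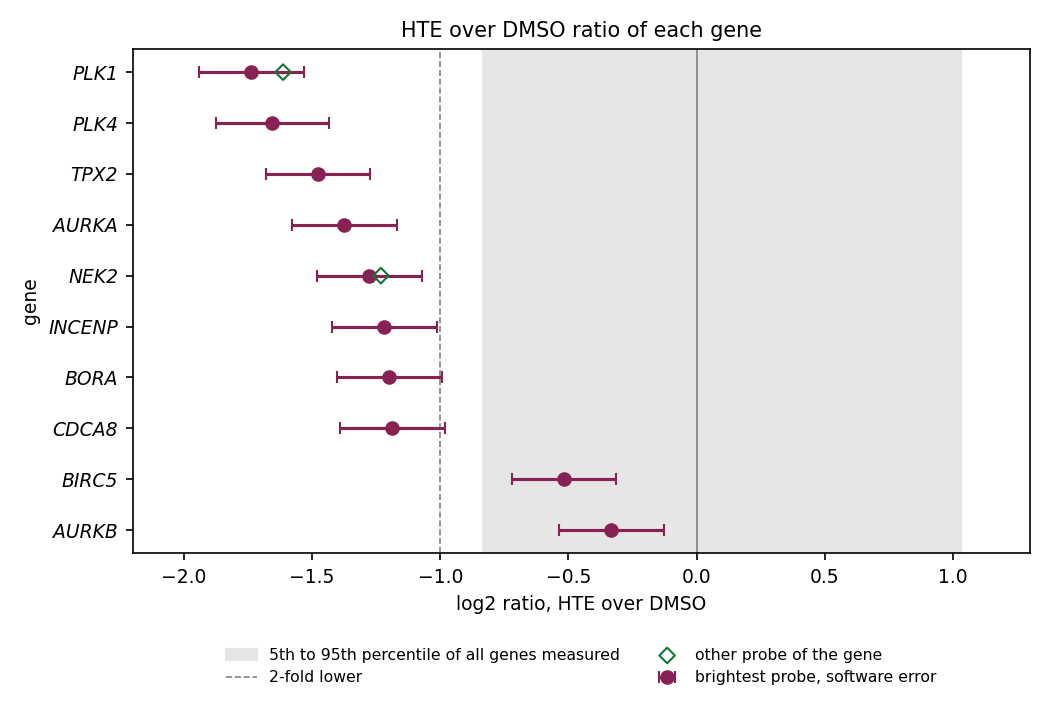
Log2 ratio of HTE over DMSO (x axis) for each gene (y axis) at its brightest probe, with the software error of the ratio as bars, and green diamonds for the other probe of PLK1 and NEK2. For INCENP and BIRC5 the bars give the mean error of single spots. The grey band spans the 5th to 95th percentile of all genes measured (-0.83 to 1.03). The genes other than BIRC5 and AURKB lie left of the dashed 2-fold line, and the bars of BORA and CDCA8 reach across it.

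Within the chromosomal passenger complex the log2 ratios were unequal. CDCA8 went from a signal of 19401 for DMSO to 7568 for HTE, 2.28-fold lower after scaling (log2 ratio of -1.19, software error 0.20). INCENP and BIRC5 were each printed in 10 spots per array, which gives a spread for their values. For INCENP, the signal lay between 3789 and 4105 on the DMSO array (median 3966, 10 spots) and between 1452 and 1644 on the HTE array (median 1494, 8 spots, with 2 more left out as outliers by the software). The mean scaled signals gave 2.33-fold lower (log2 ratio of -1.22). Over the 8 spots used on both arrays the log2 ratio ran from -1.32 through a median of -1.25 to -1.08, with an SD of 0.078. The excluded spots, at -1.33 and -1.25, were at least 2-fold lower as well.

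BIRC5 had a signal between 51388 and 55211 on the DMSO array (median 52952, 10 spots) and between 31691 and 33908 on the HTE array (median 32962, 10 spots). The mean scaled signals gave 1.43-fold lower (log2 ratio of -0.52), and the 10 spots ran from -0.60 to -0.47 with an SD of 0.045. The log2 ratios of INCENP and BIRC5 differed by 0.70, against a software error of 0.29 taken per spot. CDCA8 and INCENP differed by 0.032 and BIRC5 and AURKB by 0.18, both within the error of 0.29. CDCA8 was 0.85 and INCENP 0.89 below AURKB in log2 ratio, each with an error of 0.29. Spots on 1 array share the same RNA, so their spread says nothing about the spread between cultures. The 6 genes outside the passenger complex were all at least 2-fold lower, with log2 ratios from -1.74 to -1.20, and 2 of the 4 passenger genes were.

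**Figure D3:**
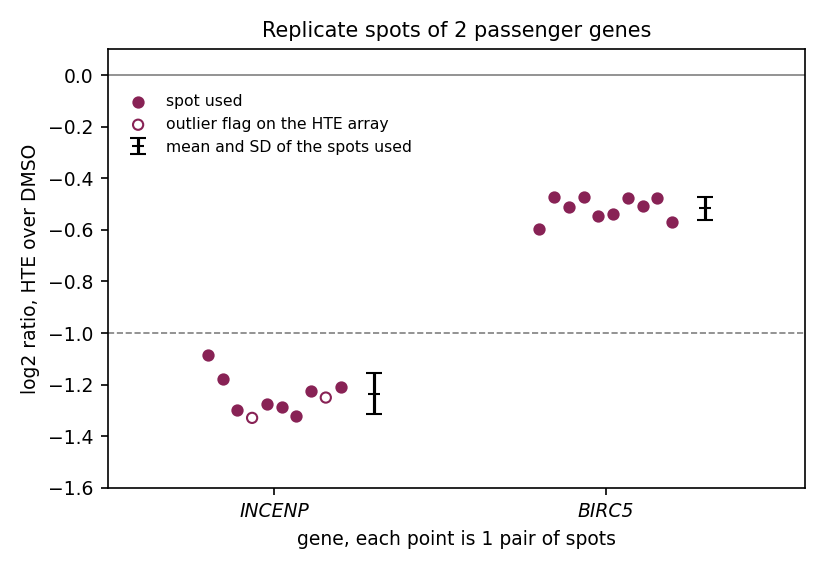
Log2 ratio of HTE over DMSO (y axis) at each replicate spot of INCENP and BIRC5 (x axis), with open circles for spots that the software marked as outliers on the HTE array. Black bars give the mean and SD of the spots used. All spots of INCENP lie below the dashed 2-fold line, and all spots of BIRC5 lie above it.

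Promoters of genes that peak in late cell cycle often hold a CHR element (TTTGAA), bound by complexes built on the MuvB proteins, and CCAAT boxes, bound by NF-Y. Windows of 250 bases before a start site were read from the RefSeq promoter table (GRCh38.p14), which held 7 of the 10 genes and not AURKA, BIRC5 and TPX2. Both strands were searched for the CHR element and for its variant, spelled TTCGAA, as well as for the CCAAT box. An E2F-type string spelled GCGGGAA was searched in the same way, and so was a different E2F-type string, spelled TTTGGCG. On either strand, the CCAAT box was found for all 7 genes (8 of their 10 windows, PLK4 having 3 and AURKB 2), compared with 32.0% of the 35116 windows in the table. The CHR element was found for PLK1, BORA, CDCA8 and INCENP (4 of the 10 windows), against 13.3% of all windows. Its variant was found for BORA, against 1.19%. No window of PLK4 (log2 ratio of -1.65), NEK2 (-1.28) or AURKB (-0.33) held the CHR element. Neither E2F-type string was found in a member window, and they were present in 5.52% and 1.59% of all windows. The windows of PLK1, the gene with the lowest log2 ratio, and of 3 passenger genes with unequal log2 ratios are shown 5′ to 3′, with CHR and CCAAT strings of either strand in capitals.
PLK1 (chr16:23678639-23678888, plus strand): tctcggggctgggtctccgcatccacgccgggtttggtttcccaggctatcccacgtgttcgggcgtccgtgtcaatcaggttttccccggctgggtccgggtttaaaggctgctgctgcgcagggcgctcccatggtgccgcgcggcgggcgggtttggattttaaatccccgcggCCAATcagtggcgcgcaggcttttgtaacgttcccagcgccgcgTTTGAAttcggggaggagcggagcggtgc
CDCA8 (chr1:37692266-37692515, plus strand): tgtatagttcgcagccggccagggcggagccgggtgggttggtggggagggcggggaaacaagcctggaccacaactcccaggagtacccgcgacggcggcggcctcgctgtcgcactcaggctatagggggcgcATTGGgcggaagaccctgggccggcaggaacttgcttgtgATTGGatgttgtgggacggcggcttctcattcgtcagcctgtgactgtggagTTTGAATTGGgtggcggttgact
INCENP (chr11:62123761-62124010, plus strand): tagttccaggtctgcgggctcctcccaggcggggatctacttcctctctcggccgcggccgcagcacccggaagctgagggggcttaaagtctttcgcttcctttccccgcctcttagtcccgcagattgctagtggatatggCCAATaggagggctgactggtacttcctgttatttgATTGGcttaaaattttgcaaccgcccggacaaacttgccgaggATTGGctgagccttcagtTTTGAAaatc
AURKB (chr17:8210250-8210499, minus strand): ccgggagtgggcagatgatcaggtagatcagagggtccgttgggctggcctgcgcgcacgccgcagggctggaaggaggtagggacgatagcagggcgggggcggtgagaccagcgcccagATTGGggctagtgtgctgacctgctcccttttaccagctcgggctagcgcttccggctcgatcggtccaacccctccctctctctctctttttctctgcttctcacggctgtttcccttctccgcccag
In PLK1, TTTGAA lay 29 to 24 bases before the start site and CCAAT 73 to 69 bases before it. In CDCA8, TTTGAA (23 to 18 bases before the start) overlapped a reversed CCAAT by 1 base, and in INCENP it lay 10 to 5 bases before the start. The AURKB window, that of the more upstream of its start sites, held a reversed CCAAT only, 129 to 125 bases before the start. A match of letters is not evidence of binding, and the absence of a string concerns this window only.

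Of 14 other Polo, Aurora and NEK kinase genes, 11 were measured. Of these, 1 was at least 2-fold lower and 1 at least 2-fold higher (3.03% and 5.25% of all genes). Their median log2 ratio was 0.065, with a direction that depends on the scaling (-0.028 without scaling, 0 with scaling to the median and -1.08 with spike-in scaling). PLK2 and PLK3, stress-responsive Polo-like kinases, had log2 ratios of -0.07 (signal 2378 for DMSO and 2007 for HTE) and 0.52 (7149 and 9132). NEK6 and NEK9, which act in the same mitotic pathway as each other, had log2 ratios of 0.065 and -0.16. AURKC, the Aurora kinase of germ cells, was well above background on the DMSO array only (signal 96.5 for DMSO and 55.9 for HTE) and has no fold, and PLK5 and NEK7 were not well above background on either array. NEK10 was 2.03-fold lower (signal 604 for DMSO and 264 for HTE) and NEK8 2.16-fold higher at low signals (118 and 227). For BIRC5, the other genes of the IAP family and their antagonist DIABLO were set beside it, and 6 of 8 were measured with a median log2 ratio of 0.20, which was -1.02 with spike-in scaling. BIRC6 was the lowest (-0.15) and BIRC3, an inhibitor of apoptosis in NF-κB signalling, the highest (0.81), and none passed 2-fold.

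Of 17 genes that recruit the chromosomal passenger complex or that it acts on, all had log2 ratios below 0 at the brightest probe. At that probe 11 were at least 2-fold lower, and the median of the 17 was -1.07 (3.03% of all genes were 2-fold lower and 49.0% below 0). The lowest was KIF20A, the kinesin that carries the complex to the central spindle, at -1.45 (signal 13016 for DMSO and 4226 for HTE), and the highest was CBX3, a heterochromatin protein, at -0.08. HASPIN and BUB1, the kinases that write the histone marks through which the complex is recruited, had log2 ratios of -1.03 and -1.05. Dimmer probes of KIF4A (-0.86), SGO1 (-0.99) and KNL1 (-0.30, dim on the HTE array) were below 0 and not 2-fold lower. The dimmer probe of CBX5 was above 0 (0.16), and those of CBX1, CBX3 and KIF23 were below 0. Of 16 activators and targets of PLK1, 15 were below 0 and 5 at least 2-fold lower (median of -0.84), from CCNA2 (cyclin A2) at -1.73 to WEE1, a kinase that holds back mitotic entry, at 0.21.

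For PLK4 and NEK2, 18 centriole and centrosome genes had a median log2 ratio of -0.55, with 15 below 0 and 3 at least 2-fold lower. The lowest value was that of STIL, the partner of PLK4 in centriole assembly, at -1.53 on its brighter probe and -0.30 on its dimmer probe, so both probes were lower and only the brighter one was 2-fold lower. The highest was CEP68, a linker protein between centrosomes, at 0.39. CROCC was above 0 at its brightest probe (0.35), and its dimmer probes ran from -0.22 to 0.28. For Aurora A and TPX2, 11 of 12 spindle partners were measured, with a median of -0.36, 10 below 0 and 1 at least 2-fold lower. TACC3, which Aurora A places on the spindle, was the lowest at -1.02, and NUMA1, a spindle pole protein, the highest at 0.23.

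**Figure D4:**
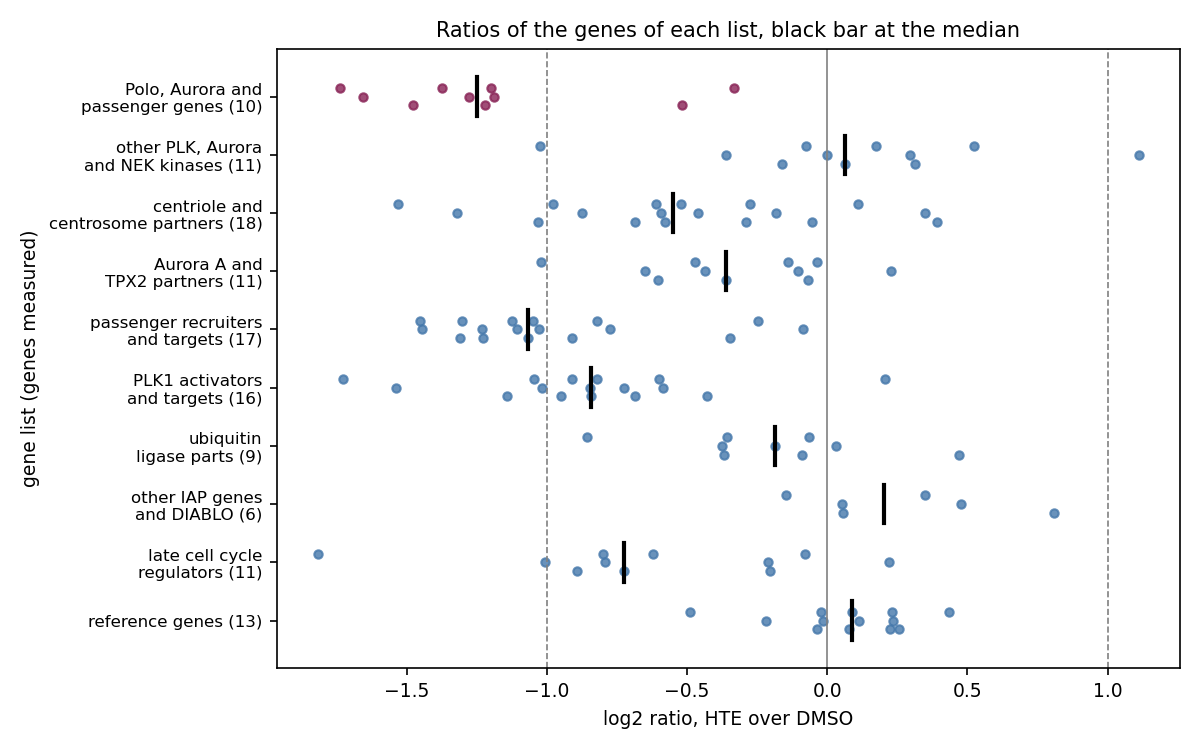
Log2 ratio of HTE over DMSO (x axis) of every gene measured in each list (y axis, number measured in parentheses), at the brightest probe, with a black bar at the median and dashed lines at 2-fold. The members (purple) have a median of -1.25, the recruiters and targets of the passenger complex -1.07, and the other PLK, Aurora and NEK kinases 0.065, a value whose sign turns without scaling (-0.028).

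Ubiquitin ligase parts that mark several of these proteins for destruction were also listed. Of 10, 9 were measured and none passed 2-fold, with a median log2 ratio of -0.19, from CDC20, which starts anaphase, at -0.86 to FZR1, which keeps the ligase active afterwards, at 0.47. Of 11 transcription regulators of late cell cycle genes, 10 were below 0 and 2 at least 2-fold lower, against 49.0% and 3.03% of all genes. The median of the 11 was -0.72. RBL1 (p107) was the lowest at -1.82, and its dimmer probe gave -2.01. FOXM1, an activator of late cell cycle genes, was at -1.01, MYBL2 at -0.72, and LIN37, a MuvB subunit, the highest at 0.22. The 13 reference genes had a median of 0.089 (-0.082 without scaling and -1.13 with spike-in scaling), from TBP at -0.49 to GAPDH at 0.43.

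Under each of the other ways of processing apart from spike-in scaling, PLK1 kept the lowest and AURKB the highest log2 ratio, all 10 genes were below 0, and 8 were at least 2-fold lower. PLK1 then lay between -1.91 and -1.66, AURKA between -1.55 and -1.33, BIRC5 between -0.69 and -0.52, and AURKB between -0.50 and -0.32. Scaling to the spike-in RNA shifted every gene down, so that all 10 members and 68.2% of all genes were at least 2-fold lower, with PLK1 at -2.96 and AURKB at -1.56, against a median of -1.21 for all genes.

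**Figure D5:**
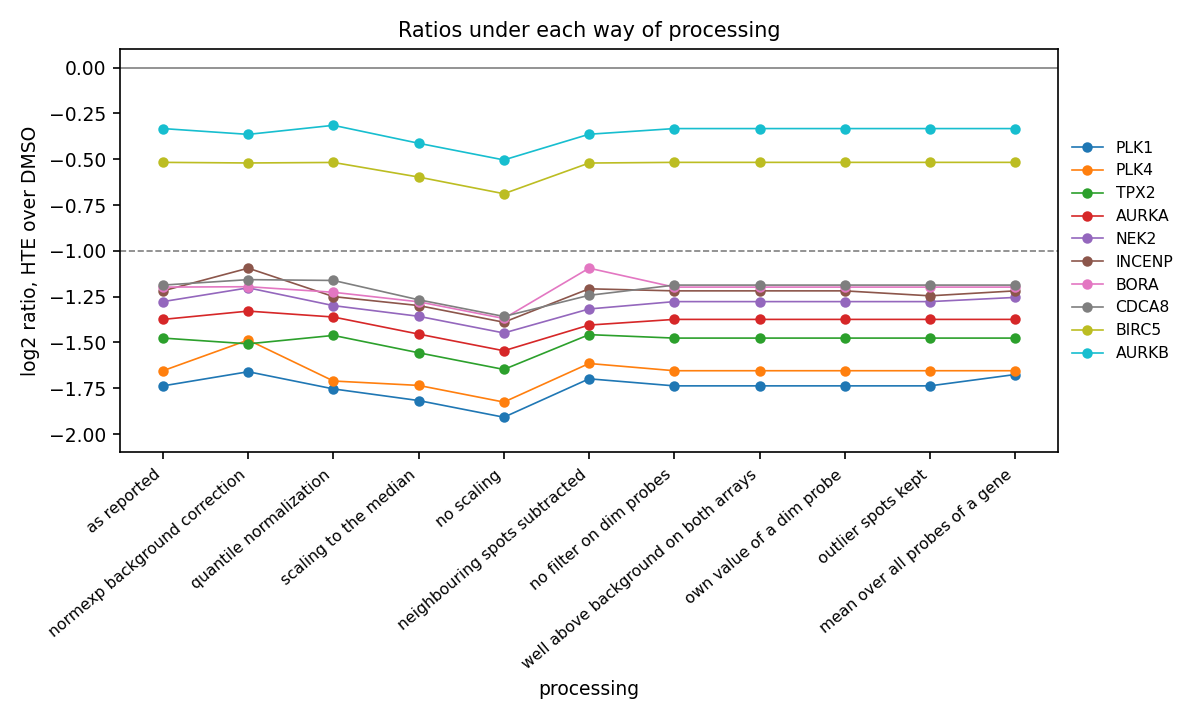
Log2 ratio of HTE over DMSO (y axis) of each of the 10 genes (lines) under each way of processing (x axis), spike-in scaling left out. The lines of BIRC5 and AURKB stay above the dashed 2-fold line and the other 8 below it, from -1.91 for PLK1 without scaling to -0.32 for AURKB with quantile normalization.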

How the data were processed

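The authors deposited the Agilent Feature Extraction output of each array, made with version 11.5.1.1 per the file headers (the submitters' processing notes name version 10.7). Intensity values in the deposited files are processed signals, background-subtracted and detrended within an array by the software and not scaled between arrays, with an error and flags per spot. Files of 62976 spots per array were read, of which 58717 were not controls. On the DMSO and HTE arrays 60.6% and 56.6% of these were well above background. The number of arrays, 1 per condition, limits the precision.

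Log2 was taken and the 75th percentile of each array was subtracted (4020 on the DMSO and 3570 on the HTE array). That percentile covered every spot that was not a control, and spots flagged as outliers were then left out. Replicate spots were averaged. A probe was kept if, on either array, a share of at least 0.5 of its spots was well above background. A ratio with a dim side was set as a bound, and a bound under 1-fold as 0. Probes were named through unversioned RefSeq accessions in the GRCh38.p14 gene table, which matched 28174 of 50599 probes. The file headers name an older build, so gene coordinates are not given, and those of promoters are from the RefSeq table alone. The brightest probe stood for a gene, which was called at 2-fold, the threshold of the study's methods. The software error of a ratio combines the errors of both signals. For INCENP and BIRC5 it is the mean of the errors of their 10 single spots, flagged ones included, although their ratios are means over spots.

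The members, lists and motifs were chosen with earlier results of these data known. The genes named are all members with all probes, the lowest and highest of each list, and PLK2, PLK3, PLK5, AURKC, NEK6, NEK7 and NEK9. HASPIN, BUB1, CROCC, FOXM1, MYBL2, NEK8 and NEK10 and the dimmer probes of list genes were named with their values seen. The alternatives were normexp background correction (offset 50, on the median signal since the files hold no mean signal), quantile normalization, scaling to the median, to nothing or to the E1A spike-in probes well above background on both arrays, subtraction of the median of spots within 5 rows and columns, no filter or a filter on both arrays, own values of dim probes, outlier spots kept, the mean over probes, and 1.5-fold and 3-fold thresholds. The steps were run on simulated data, in which the DMSO array was set against a noisy copy of itself with some genes lowered. That simulation held no raised genes, no difference in brightness between arrays and no probe dim on a single array. Python 3.11.15 (numpy 2.4.6, pandas 2.3.3, matplotlib 3.10.9) and R 4.3.3 (limma 3.58.1) were used.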

Additional observations from a re-analysis of the deposited data

How the results depend on the processing

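A median was taken as moved when it changed by more than the SD between probes of a gene (0.16), and a count when it changed by over 1.5 times. The number of members at least 2-fold lower was 8 in every alternative that kept the 2-fold threshold except spike-in scaling, where it was 10. At 1.5-fold it was 8 and at 3-fold 2. No member changed sign. Without scaling, the medians were -1.42 for the members, -0.72 for centriole and centrosome partners, -0.53 for Aurora A and TPX2 partners, -1.24 for recruiters and targets of the passenger complex, -1.01 for PLK1 activators and targets, -0.36 for ubiquitin ligase parts, 0.031 for the other IAP genes, -0.90 for late cell cycle regulators and -0.082 for reference genes, against -0.16 for all genes. With spike-in scaling they were -2.47, -1.77, -1.58, -2.29, -2.07, -1.41, -1.02, -1.95 and -1.13 in the same order, -1.08 for the other Polo, Aurora and NEK kinases, and -1.21 for all genes. The medians of the other IAP genes, the reference genes and the other kinases thus changed sign with spike-in scaling. Those of the reference genes and the other kinases (-0.028) also changed sign without scaling. With quantile normalization the median of the reference genes changed sign as well (-0.0079).

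Counts over all genes moved more. Genes at least 2-fold lower numbered 720, and 468 with normexp background correction, 1209 without scaling, 16205 with spike-in scaling, 1270 without a filter on dim probes and 1320 where dim probes kept their own values. Genes at least 2-fold higher numbered 1248, and 825 with normexp, 142 with spike-in scaling and 2297 without the filter. At 1.5-fold there were 2505 lower and 2953 higher genes, and at 3-fold 129 and 422. Higher genes were 63.4% of those past 2-fold, 58.1% with quantile normalization, 54.5% with scaling to the median, 42.2% without scaling, 50.4% with own values of dim probes and 0.869% with spike-in scaling. The causes were not tested, apart from the common shift that a scaling brings. No paired analysis was possible because each condition has a single array. All member spots were well above background, so signal over background limits only dim list genes such as AURKC.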
